A study of Mus musculus with 20 samples.

Results

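The genes described here build and run the DNA replication machinery. They form a list of 52 genes for the origin recognition complex, the loading and activation of the MCM helicase, the replicative polymerases with their clamp and clamp loader, the processing of Okazaki fragments, fork protection, chromatin assembly and maintenance methylation. Where a gene had several probe sets, the brightest on average over the 20 arrays stood for it. In this way 51 of the 52 genes were measured, among 18194 genes in all. The large subunit gene of chromatin assembly factor 1, Chaf1a, was not analysed here. No listed symbol had to be matched through an older alias. The list was not chosen on measured values, but earlier results of these data were known when it was drawn up.

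The data are Affymetrix mouse genome arrays of lens RNA, 1 array per mouse, with both lenses of that mouse combined. TKO lenses (triple knockout, labelled Cry-Cre E2F1-/- E2F2-/- E2F3f/f) were taken at birth (P0, 5 arrays) and are set against E2F2-/- control lenses at P0 (5 arrays). TKO lenses of the embryonic stage E17.5 (5 arrays) are set against E2F2-/- control lenses of E17.5 (5 arrays). Every lens therefore lacked E2F2, so the contrast covers E2F1, the floxed E2F3 and the Cry-Cre transgene together, and no control label names Cre. The labels do not say which promoter drives Cre, which lens cells lose E2F3, or which litters the mice came from, so p-values measure the spread between these mice. The stated purpose was to find what precedes the breakdown of lenses without E2F1, E2F2 and E2F3 in newborn mice.

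Before a cell can copy its DNA, the origin recognition complex, Cdc6 and Cdt1 load the MCM2-7 ring onto origins, a step called licensing that geminin blocks once replication has begun. Dbf4-dependent kinase, Cdc45 and GINS then turn the ring into a moving helicase, and primase, the polymerases, the PCNA clamp and replication protein A copy and guard the opened strands. Genes of this machinery are textbook targets of E2F factors, which bind their promoters and, with retinoblastoma-family proteins, also repress them. In the growing lens, epithelial cells divide near the equator, while fibre cells leave the cell cycle and fill with crystallins.

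Because E2F sites lie in promoters, the promoters of the genes were searched for 4 strings of 8 letters of the E2F type, TTTCCCGC, TTTCGCGC, TTTGCCGC and TTTGGCGC, on both strands. The windows were RefSeq promoters of build GRCm38.p6, and overlapping matches of different strings were both kept. Of the 51 genes, 42 had a promoter there, and 18 of these (42.9%) held at least 1 match. The share was 3.81% of the 14453 genes of the array with a promoter, 2.26% of all 32851 promoters of the table, and 5.23% of promoters with at least as many CG pairs as the median of these genes. A match is a run of letters, not a measured binding site. Of the upstream windows shown, 3 hold matches, in capitals, and that of Prim1, the gene with the largest change at P0, holds none. They are Cdc6 at chr11:98907991-98908150 (plus strand), Mcm5 at chr8:75109329-75109508 (plus strand), Mcm6 at chr1:128359706-128359855 (minus strand) and Prim1 at chr10:128015065-128015214 (plus strand), each written 5′ to 3′ along its gene.
Cdc6: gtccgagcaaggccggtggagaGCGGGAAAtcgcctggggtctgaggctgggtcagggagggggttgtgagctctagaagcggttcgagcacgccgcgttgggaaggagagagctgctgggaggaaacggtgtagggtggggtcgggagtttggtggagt
Mcm5: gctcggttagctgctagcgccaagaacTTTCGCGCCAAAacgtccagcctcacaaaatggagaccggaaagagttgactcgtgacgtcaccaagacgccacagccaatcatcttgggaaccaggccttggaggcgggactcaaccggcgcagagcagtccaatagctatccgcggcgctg
Mcm6: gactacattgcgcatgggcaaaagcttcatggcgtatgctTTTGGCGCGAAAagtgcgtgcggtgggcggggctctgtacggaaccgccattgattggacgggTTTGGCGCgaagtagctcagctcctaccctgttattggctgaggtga
Prim1: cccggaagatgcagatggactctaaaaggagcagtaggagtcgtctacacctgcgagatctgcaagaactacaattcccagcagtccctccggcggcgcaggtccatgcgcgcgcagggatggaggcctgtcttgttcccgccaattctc
The Cdc6 window held 1 match, the Mcm5 window 2 that overlap, and the Mcm6 window 3, of which 2 overlap. The Prim1 window held none of the 4 strings. Its last bases include ttcccgc, which lacks the first T of TTTCCCGC and was not counted.

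Values are the deposited log2 expression values, which ran from 1.72 to 15.01 with array medians between 5.05 and 5.25. All 15 lens fibre markers on the array lay above the array median in every array, with array means of 13.1 to 13.5, and 11 of 12 lens epithelium markers did so in every array of 3 groups (10 in control P0), so the tissue carried the markers of lens although the labels name epithelial cells as the cell type. Within the TKO lenses at E17.5, the arrays of replicates 24 and 27 stood apart, as they correlated more with the control arrays than with their own group. Over all genes, replicate 24 correlated at 0.992 on average with the control E17.5 arrays and at 0.986 with its own group, and replicate 27 at 0.995 and 0.988. No other label separates these arrays from their group, and whether their genotype labels are right cannot be told from these correlations, so counts, medians and the changes of the named genes at E17.5 are given with and without them. E2f1 mRNA was higher in TKO lenses, at 7.79 ± 0.14 against 7.34 ± 0.14 in control lenses at P0 (SD, n = 5 each) and at 7.81 ± 0.17 against 7.21 ± 0.04 at E17.5, with limma changes of 0.44 ± 0.09 (adjusted p = 0.00363) and 0.60 ± 0.08 (adjusted p = 0.00913). Replicates 24 and 27 read 7.94 and 7.95 for E2f1, the highest of the TKO E17.5 arrays and above all control E17.5 arrays (7.15 to 7.24), and without them the change was 0.51 ± 0.08 (adjusted p = 0.00469). E2f2 and E2f3 did not pass the test at either stage, with changes between -0.09 and -0.04. The probes may lie outside the deleted parts, so these mRNA levels say nothing on whether the proteins were lost.

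At P0, replication genes were higher in TKO lenses across nearly the whole machinery. Of the 51 genes, 44 were higher in TKO than in control lenses, 0 were lower and 7 did not pass the test (limma, Benjamini-Hochberg adjusted p below 0.05, two-sided). At an unadjusted p under 0.05, 48 were higher and 1, Timeless, was lower, against 19.2% and 17.6% of all genes. Over all 18194 genes, 25.3% were called in either direction and 13.6% were called higher. The median log2 change of the 51 genes was 0.60, beside 0.002 over all genes. In 39 of the genes every TKO array lay above every control array, as in 9.65% of all genes, and 7 changed by at least 1 log2 unit, as in 1.93% of all genes. The 7 genes without a call were Orc1, Rfc1, Pola2, Prim2, Pold2, Fen1 and Timeless. In whole lenses, more cells in cycle and more RNA per cell cannot be told apart. Some markers of other eye tissue were also higher at P0, as given below. How much such tissue added to these changes was not tested.

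**Figure D1:**
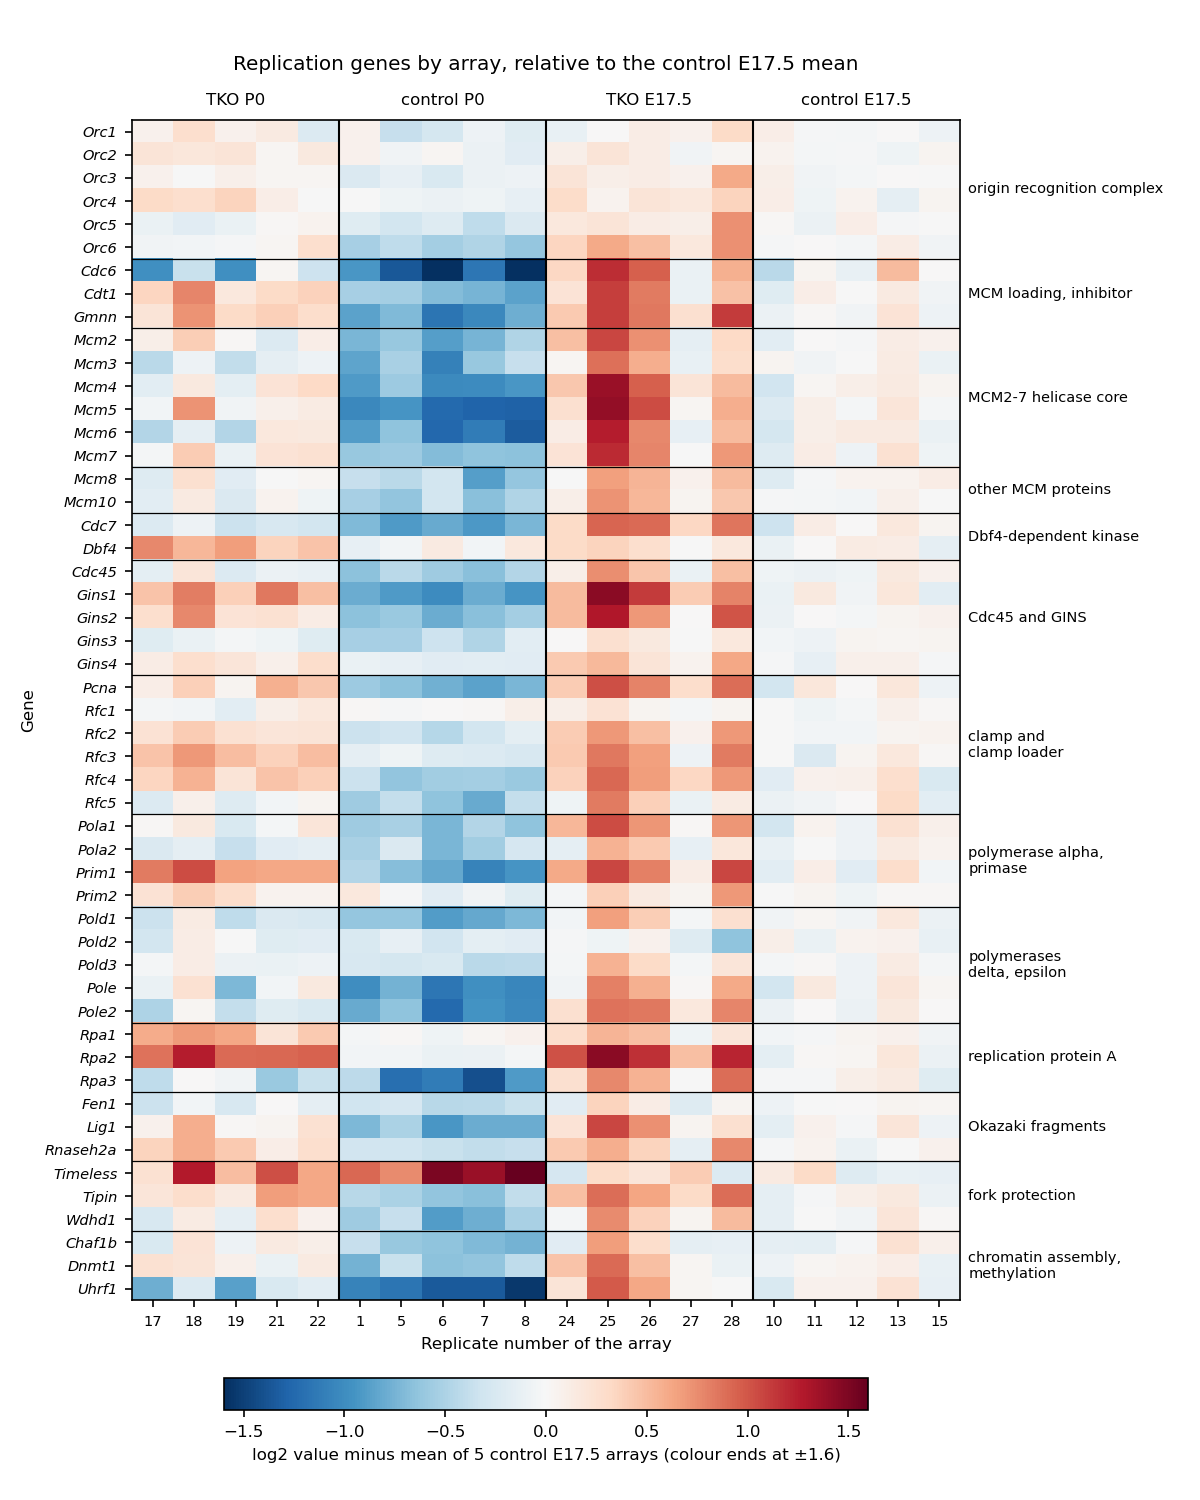
Log2 value of each of the 51 replication genes (rows, grouped by sub-complex) in each of the 20 arrays (columns, by replicate number), minus the mean of the 5 control E17.5 arrays. Most genes are blue in control P0 arrays, near 0 or red in TKO P0 arrays, and red in TKO E17.5 replicates 25, 26 and 28, while replicates 24 and 27 are paler; Timeless is red at P0 in both genotypes.

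At E17.5, 6 of the 51 genes were higher in TKO than in control lenses, 0 were lower and 45 did not pass the test. Calls in either direction made up 1.64% of all genes at this stage, and calls of higher 0.912%. The 6 genes were Orc6, Gmnn, Gins1, Rfc4, Rpa2 and Tipin. The change was positive in 50 of 51 genes, with a median of 0.37 beside -0.06 over all genes. At an unadjusted p under 0.05 in limma, 34 genes were higher and 0 were lower, against 7.67% and 16% of all genes. No overlap between the groups, with TKO above control, was found for 11 of the genes and for 2.76% of all genes. The spread was wide, since the median SD of the 51 genes was 0.33 in TKO E17.5 arrays and between 0.12 and 0.18 in the other groups. Without replicates 24 and 27, 36 of 51 genes were higher (9.41% of all genes were) and the median change was 0.57. These arrays were picked from the values, as the nearest to the control arrays. They were also the lowest of their group for the 51 genes, with median deviations of 0.22 and 0.03 from the control mean. Leaving them out therefore tends to raise the changes and narrow the spread, so fits without them, here and below, are no separate evidence. Leaving out any 1 array gave between 1 and 24 calls (0.291% to 6.52% of all genes), with 24 calls without TKO replicate 27 (6.52%), and Rpa2 as the single call without any 1 control array or without TKO replicate 25 or 26.

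The named genes were also fitted at E17.5 without replicates 24 and 27, whose removal was chosen from the values. The 6 called genes then changed by 0.61 (Orc6), 0.76 (Rfc4), 0.81 (Tipin), 1.02 (Gmnn), 1.11 (Gins1) and 1.27 (Rpa2), with adjusted p between 0.000294 and 0.00431. Mcm4, Mcm5, Mcm10, Cdc7, Prim1, Pole, Pole2 and Rnaseh2a, which did not pass with all arrays, passed in this fit, with changes from 0.56 (Mcm10) to 1.01 (Mcm5) and adjusted p from 0.000482 to 0.00735. So did Pcna at 0.91 ± 0.12, Gins2 at 1.0 ± 0.12 and Cdt1 at 0.80 ± 0.14. Dbf4 (0.27), Dnmt1 (0.43), Uhrf1 (0.53), Rfc1 (0.11), Timeless (0.09) and Pold2 (-0.21) still did not pass.

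**Figure D2:**
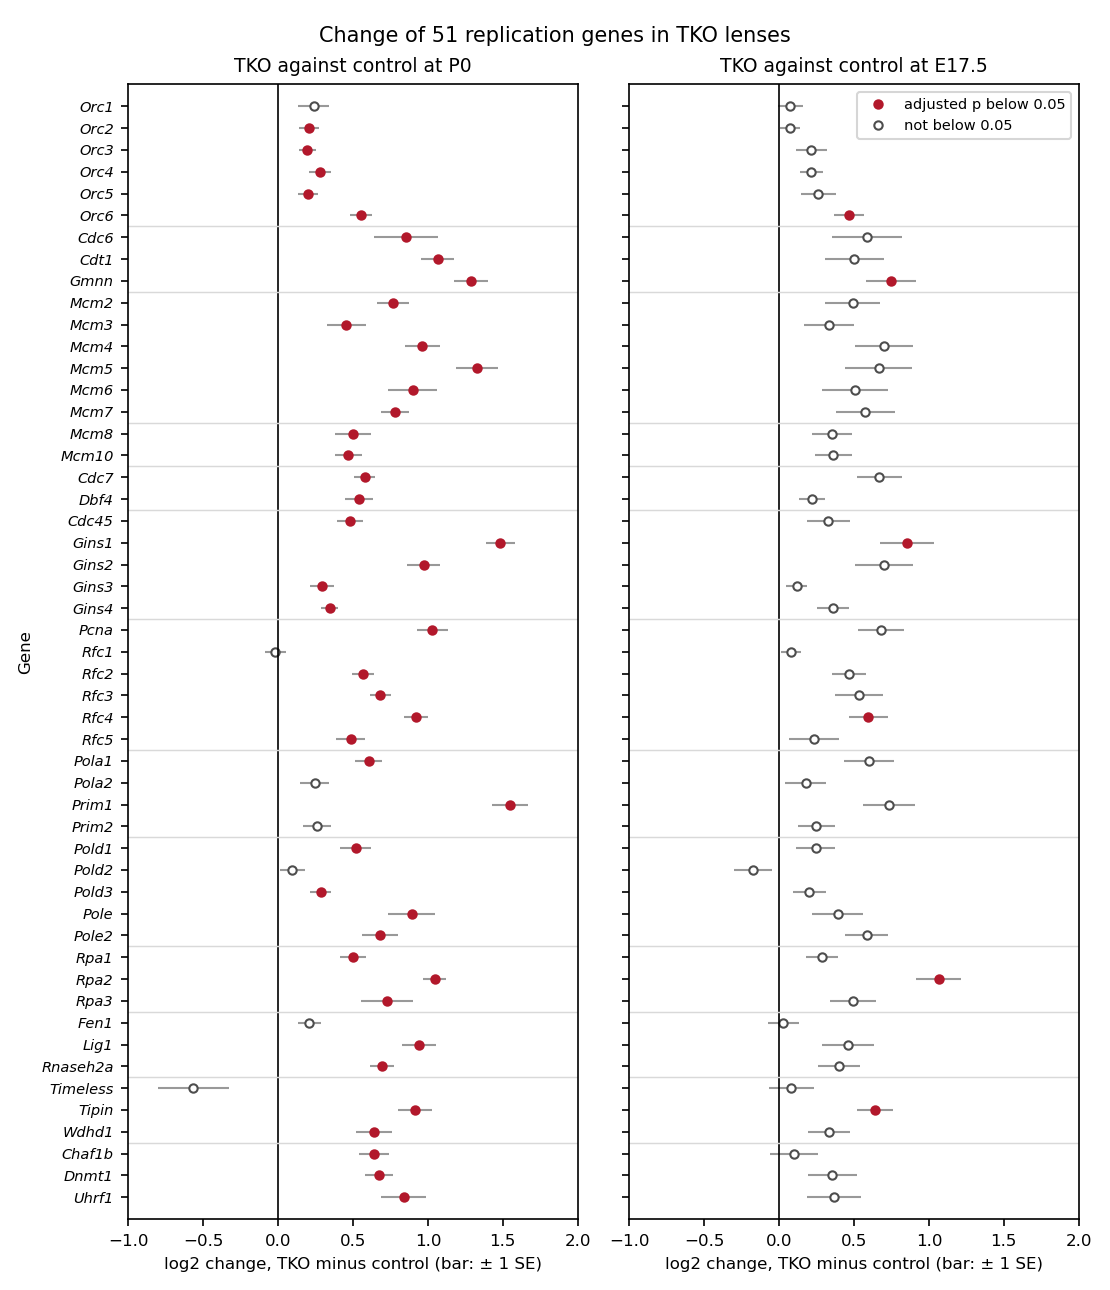
Log2 change of each of the 51 genes, TKO minus control, at P0 (left) and at E17.5 (right), with a bar of ± 1 SE from limma. Filled points have an adjusted p below 0.05. At P0, 44 filled points lie right of 0, and at E17.5, 6 do, with wider bars.

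The origin recognition complex, which marks where replication can start, had the lowest median change of all sub-complexes at P0. At P0, 5 of its 6 genes were higher in TKO lenses, with a median change of 0.22, and at E17.5 Orc6 alone was. Orc6 (chromosome 8), one of its smaller subunits, read 7.56, 7.56, 7.59, 7.64 and 7.88 in TKO P0 arrays, against 7.08, 7.21, 7.06, 7.13 and 6.99 in control P0 arrays. All 5 TKO arrays lay above all control arrays, a change of 0.55 ± 0.08 (SE, adjusted p = 0.000551). At E17.5 Orc6 read 7.95, 8.21, 8.09, 7.78 and 8.35 in TKO arrays, against 7.59, 7.61, 7.58, 7.73 and 7.55 in control arrays, again without overlap, and its change was 0.47 ± 0.10 (adjusted p = 0.0475). The other genes, Orc1 to Orc5, had changes of 0.20 to 0.28 at P0. The less bright probe sets of Orc2 gave 0.60 and 0.65 at P0 where the brightest gave 0.20, and those of Orc4 gave -0.15, 0.13 and -0.09 where the brightest gave 0.28, so the size for these genes depends on the probe set. Over the 21 alternatives tried at P0, the call of Orc6 held in all 21, that of Orc4 in 18, Orc3 in 14, Orc2 in 12 and Orc5 in 7.

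MCM loading and its brake had the highest median of all sub-complexes at P0, 1.07, and all 3 genes were higher in TKO lenses. Gmnn (chromosome 13) encodes geminin, which holds Cdt1 inactive after origins have fired. Its values were 7.90, 8.41, 8.0, 8.07 and 7.96 in TKO P0 arrays, against 6.83, 6.97, 6.52, 6.66 and 6.90 in control P0 arrays. The lowest TKO array lay far above the highest control array, and the change was 1.29 ± 0.11 (adjusted p = 5.6e-05), or 2.44-fold. At E17.5 Gmnn read 8.10, 8.79, 8.53, 7.95 and 8.80 in TKO arrays, against 7.59, 7.70, 7.63, 7.91 and 7.60 in control arrays, which just failed to overlap, a difference of 0.75 ± 0.16 (adjusted p = 0.0491). Cdt1, the loading factor that geminin binds, changed by 1.07 ± 0.11 at P0 (adjusted p = 0.000137) and did not pass at E17.5 (0.50 ± 0.19, adjusted p = 0.156). Cdc6, the ATPase that loads the ring together with Cdt1, averaged 4.61 ± 0.44 in TKO P0 arrays and 3.76 ± 0.35 in control P0 arrays. It lay below the array median in all P0 arrays of both genotypes, so its change of 0.85 ± 0.21 (adjusted p = 0.0126) came from a dim probe set.

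All 6 subunits of the MCM2-7 ring, the core of the replicative helicase, were higher in TKO lenses at P0, with a median of 0.84 and a range of 0.46 (Mcm3) to 1.33 (Mcm5). The less bright probe sets of Mcm3 gave 0.93, 0.97, 0.90 and 0.26, so its place as the lowest of the ring depends on the probe set. Mcm5 (chromosome 8) gave 8.34, 9.10, 8.33, 8.46 and 8.52 in TKO P0 arrays, against 7.35, 7.44, 7.13, 7.10 and 7.09 in control P0 arrays. The TKO arrays lay well above the controls, 2.51-fold on the mean (change 1.33 ± 0.14, adjusted p = 0.000168), with replicate 18 highest. None of the 6 passed the test at E17.5, where their median was 0.54 and 5 had an unadjusted p under 0.05. Mcm4 (chromosome 16) had the smallest p of the ring there, with 8.98, 9.93, 9.51, 8.76 and 9.06 in TKO E17.5 arrays, against 8.25, 8.58, 8.65, 8.69 and 8.59 in control E17.5 arrays. These groups did not overlap, but replicate 27 of the TKO arrays was within 0.1 of the highest control, and the change was 0.70 ± 0.19 (adjusted p = 0.0829). Without replicates 24 and 27, whose removal was chosen from the values, all 6 subunits were called higher at E17.5 (9.41% of all genes were). Mcm2 and Mcm7, with the brightest probe sets of the ring, changed by 0.77 ± 0.11 and 0.78 ± 0.09 at P0.

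Mcm8 and Mcm10 are MCM-named proteins that act outside the ring, Mcm8 in recombination repair and Mcm10 in helicase activation. Both were higher in TKO lenses at P0. Mcm10 (chromosome 2) read 7.03, 7.34, 6.96, 7.25 and 7.13 in TKO P0 arrays, against 6.66, 6.57, 6.90, 6.52 and 6.71 in control P0 arrays, a change of 0.47 ± 0.09 (adjusted p = 0.00357) with a gap of under 0.1 between the groups. At E17.5 its values were 7.29, 7.91, 7.72, 7.24 and 7.62 in TKO arrays, against 7.18, 7.17, 7.15, 7.27 and 7.19 in control arrays, so that replicate 27 fell within the control range and the gene did not pass (0.36 ± 0.12, adjusted p = 0.116). The less bright probe sets of Mcm10, with means of 5.22 and 3.54, gave 0.20 and 0.18 at P0, so its size depends on the probe set. Its call at P0 held in 19 of 21 alternatives. Mcm8 changed by 0.50 ± 0.12 at P0 (adjusted p = 0.0105), with a probe set under the array median in each control P0 array.

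Dbf4-dependent kinase, which phosphorylates the loaded ring to start replication, was higher in both of its genes at P0. Cdc7 (chromosome 5), its catalytic subunit, read 6.60, 6.74, 6.48, 6.57 and 6.52 in TKO P0 arrays, against 6.11, 5.91, 6.01, 5.91 and 6.09 in control P0 arrays. No arrays overlapped (0.58 ± 0.07, adjusted p = 0.0003). At E17.5 Cdc7 gave 7.13, 7.76, 7.73, 7.15 and 7.67 in TKO arrays, against 6.48, 6.93, 6.82, 6.99 and 6.87 in control arrays, also without overlap, but missed the threshold (0.67 ± 0.15, adjusted p = 0.0507). The regulatory subunit Dbf4 changed by 0.54 ± 0.09 at P0 (adjusted p = 0.00157) and did not pass at E17.5 (0.22 ± 0.09, adjusted p = 0.168).

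Cdc45 and the 4 GINS subunits, which join the ring to form the active helicase, were all higher in TKO lenses at P0, but unequally. Gins1 (chromosome 2) had 7.10, 7.46, 7.03, 7.49 and 7.12 in TKO P0 arrays, against 5.85, 5.74, 5.64, 5.85 and 5.71 in control P0 arrays. More than 1 log2 unit separated the nearest arrays, and the change was 1.48 ± 0.10 (2.80-fold, adjusted p = 3.16e-05). At E17.5 Gins1 read 7.16, 8.09, 7.76, 7.06 and 7.44 in TKO arrays, against 6.54, 6.80, 6.59, 6.83 and 6.48 in control arrays. The groups did not overlap (0.85 ± 0.18, adjusted p = 0.0448). The other probe set of Gins1, with a mean of 4.04 that lies below the array medians, gave -0.07 at P0 and -0.33 at E17.5, and the mean of both gave 0.71 and 0.26. Gins2 followed at P0 with 0.97 ± 0.11 (adjusted p = 0.000233) and did not pass at E17.5 (0.70 ± 0.19, adjusted p = 0.0794), while Cdc45 changed by 0.48, Gins4 by 0.34 and Gins3 by 0.29 at P0.

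Polymerase alpha and primase lay the primers that every new strand begins with. All 4 of their genes had positive changes at P0 with an unadjusted p under 0.05 in limma, and 2 passed after adjustment. Prim1 (chromosome 10), the catalytic primase subunit, had the largest change of the 51 genes at P0. It read 8.17, 8.38, 7.98, 7.96 and 7.95 in TKO P0 arrays, against 6.86, 6.65, 6.52, 6.27 and 6.40 in control P0 arrays. All TKO arrays were at least 1 log2 unit above the highest control, a change of 1.55 ± 0.12 (2.92-fold, adjusted p = 4.02e-05). At E17.5 its values were 7.94, 8.41, 8.15, 7.45 and 8.41 in TKO arrays, against 7.17, 7.44, 7.16, 7.62 and 7.30 in control arrays, and only replicate 27 fell within the control range (0.73 ± 0.17, adjusted p = 0.0566). Pola1, the catalytic subunit of the polymerase, changed by 0.60 ± 0.09 at P0 (adjusted p = 0.00078), while Pola2 and Prim2, the accessory subunits, did not pass, at 0.25 and 0.26. For Prim2 the next probe set in brightness gave 0.74 at P0.

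**Figure D3:**
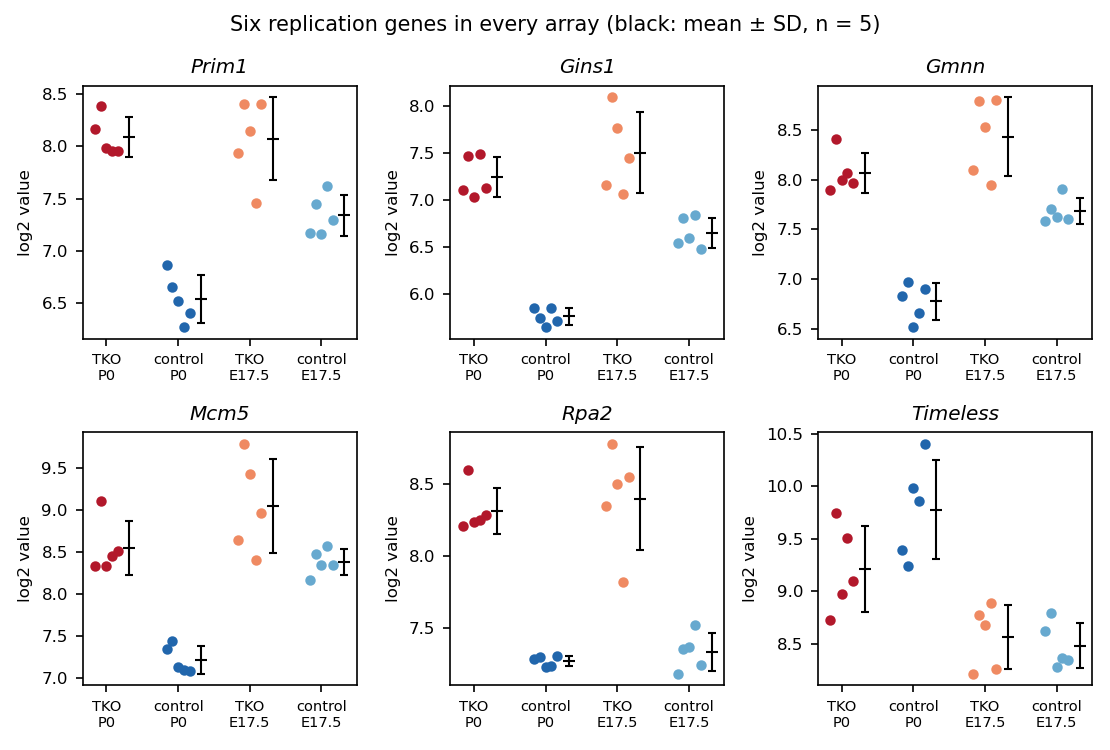
Log2 values of 6 genes in every array of the 4 groups, TKO left of control at each stage, with the mean ± SD (n = 5) in black. TKO P0 arrays of Prim1, Gins1, Gmnn, Mcm5 and Rpa2 lie above all control P0 arrays, whereas the Timeless values of TKO P0 arrays overlap those of control P0 arrays and lie mostly below them.

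Replication protein A coats single-stranded DNA at the fork, and all 3 of its genes were higher in TKO lenses at P0. Rpa2 (chromosome 4), the middle subunit, had 8.21, 8.59, 8.23, 8.25 and 8.28 in TKO P0 arrays, against 7.28, 7.30, 7.23, 7.23 and 7.30 in control P0 arrays. The control arrays spanned under 0.1 and the TKO arrays stood about 1 log2 unit above them (1.05 ± 0.08, adjusted p = 3.16e-05). At E17.5 Rpa2 read 8.35, 8.78, 8.50, 7.82 and 8.55 in TKO arrays, against 7.18, 7.35, 7.37, 7.52 and 7.24 in control arrays. Every TKO array, replicates 24 and 27 included, was above every control array. With the brightest probe set of each gene, its change of 1.06 ± 0.15 (2.09-fold, limma adjusted p = 0.0096) was the largest of the 51 at this stage. The other probe set of Rpa2, nearly as bright with a mean of 7.66, gave 0.66 at P0 and 0.67 at E17.5. Its call at E17.5 held in 21 of 22 alternatives. Rpa1 and Rpa3, the large and small subunits, changed by 0.50 ± 0.09 and 0.73 ± 0.17 at P0 (adjusted p = 0.00201 and 0.00993).

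The sliding clamp and its loader were higher in 5 of 6 genes at P0. Rfc4 (chromosome 16), a small subunit of the clamp loader, gave 7.41, 7.61, 7.26, 7.52 and 7.44 in TKO P0 arrays, against 6.71, 6.44, 6.50, 6.52 and 6.47 in control P0 arrays. The groups were clearly separate (0.92 ± 0.08, adjusted p = 5.41e-05). At E17.5 it read 7.43, 7.98, 7.73, 7.39 and 7.76 in TKO arrays, against 6.88, 7.13, 7.15, 7.33 and 6.82 in control arrays, with under 0.1 between the nearest arrays (0.60 ± 0.13, adjusted p = 0.0491). Pcna, the clamp itself, averaged 11.3 ± 0.22 in TKO P0 arrays and 10.2 ± 0.10 in control P0 arrays, a 2.04-fold change (1.03 ± 0.10, adjusted p = 0.000119). At E17.5 Pcna missed the threshold (0.68 ± 0.15, adjusted p = 0.0503). Rfc1, the large loader subunit, stood apart from Rfc2 to Rfc5 at P0 with its brightest probe set. It read 8.51 ± 0.13 in TKO P0 arrays and 8.53 ± 0.04 in control P0 arrays (-0.02 ± 0.07, adjusted p = 0.888). The less bright probe sets of Rfc1 gave 0.0002 and 0.21 at P0 and 0.20 and 0.30 at E17.5. How far Rfc1 stood apart thus depends on the probe set.

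Polymerases delta and epsilon copy the lagging and the leading strand, and 4 of their 5 genes were higher in TKO lenses at P0. Pole (chromosome 5), the catalytic subunit of polymerase epsilon, read 6.09, 6.44, 5.47, 6.15 and 6.35 in TKO P0 arrays, against 5.21, 5.43, 5.04, 5.21 and 5.15 in control P0 arrays. Replicate 19 of the TKO arrays was the lowest and barely exceeded the highest control (0.89 ± 0.16, adjusted p = 0.00201). At E17.5 Pole2 (chromosome 12), its second subunit, had the smaller p, with 7.21, 7.82, 7.79, 7.12 and 7.73 in TKO arrays, against 6.86, 6.97, 6.86, 7.11 and 6.96 in control arrays. Replicate 27 of the TKO arrays was barely above the highest control, and the gene did not pass (0.58 ± 0.14, adjusted p = 0.0627). Pold2, a small subunit of polymerase delta, did not pass at P0 (0.09 ± 0.08, adjusted p = 0.462), and at E17.5 it was the 1 gene of the 51 with a negative change (-0.17 ± 0.12, adjusted p = 0.406).

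Okazaki fragments, the short pieces of the lagging strand, are trimmed by Rnaseh2a and Fen1 and joined by Lig1. Rnaseh2a (chromosome 8), the catalytic subunit of ribonuclease H2, gave 7.24, 7.46, 7.29, 6.98 and 7.14 in TKO P0 arrays, against 6.57, 6.56, 6.52, 6.49 and 6.51 in control P0 arrays. The control values spanned under 0.1 and no arrays overlapped (0.69 ± 0.08, adjusted p = 0.000289). At E17.5 the values were 7.29, 7.46, 7.24, 6.73 and 7.64 in TKO arrays, against 6.85, 6.94, 6.77, 6.87 and 6.95 in control arrays, so replicate 27 lay below all controls and the gene did not pass (0.40 ± 0.14, adjusted p = 0.129). Lig1 changed by 0.94 ± 0.11 at P0 (adjusted p = 0.000299). Fen1, the flap endonuclease, did not pass at P0 with its brightest probe set (0.21 ± 0.08, adjusted p = 0.0647), whereas its other probe set gave 0.67.

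Fork protection held genes with changes of opposite sign at P0. Tipin (chromosome 9) read 8.78, 8.87, 8.73, 9.26 and 9.20 in TKO P0 arrays, against 8.14, 8.08, 7.95, 7.91 and 8.19 in control P0 arrays (0.91 ± 0.11, adjusted p = 0.000309). At E17.5 Tipin had 9.06, 9.48, 9.22, 8.88 and 9.48 in TKO arrays, against 8.44, 8.57, 8.67, 8.73 and 8.49 in control arrays, and passed the test too (0.64 ± 0.12, adjusted p = 0.0321). The groups did not overlap at either stage. Its binding partner Timeless (chromosome 10) did not pass the test at P0, with 8.73, 9.75, 8.98, 9.51 and 9.10 in TKO P0 arrays, against 9.40, 9.24, 9.99, 9.87 and 10.4 in control P0 arrays (-0.57 ± 0.23, adjusted p = 0.100). Its groups overlapped, and its other probe set gave -0.22. Wdhd1, which links the helicase to polymerase alpha, changed by 0.64 ± 0.12 at P0 (adjusted p = 0.00285).

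The genes that restore chromatin and DNA methylation behind the fork were all higher in TKO lenses at P0, by 0.64 to 0.84, and none passed at E17.5. Dnmt1 (chromosome 9), the maintenance methyltransferase, read 8.72, 8.68, 8.55, 8.36 and 8.62 in TKO P0 arrays, against 7.72, 8.11, 7.82, 7.85 and 8.07 in control P0 arrays. There was no overlap (0.67 ± 0.09, adjusted p = 0.000615). At E17.5 Dnmt1 had 8.92, 9.38, 8.96, 8.51 and 8.37 in TKO arrays, against 8.39, 8.51, 8.53, 8.58 and 8.36 in control arrays, where replicates 27 and 28 lay within the control range (0.35 ± 0.16, adjusted p = 0.213). Uhrf1, which brings Dnmt1 to newly copied DNA, changed by 0.84 ± 0.15 at P0 (adjusted p = 0.00224), and Chaf1b, the middle subunit of chromatin assembly factor 1, by 0.64 ± 0.10 (adjusted p = 0.0011).

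Between the stages, most replication genes fell in control lenses. Here 41 of 51 genes were lower at P0 than at E17.5, 1 was higher and 9 did not pass, where 14.6% of all genes were called lower and 8.66% higher. The median change was -0.55, beside 0.01 over all genes, and in 40 of the genes all P0 arrays lay below all E17.5 arrays (11.5% of all genes). Mcm5 gave the smallest p, with a control mean of 7.22 ± 0.16 at P0 and 8.38 ± 0.15 at E17.5 (-1.16 ± 0.09, adjusted p = 4.65e-05). Uhrf1 came next, with 6.30 ± 0.18 at P0 and 7.59 ± 0.19 at E17.5 (-1.29 ± 0.10, adjusted p = 5.37e-05). The 5 control P0 arrays are the same ones that the TKO P0 arrays were set against. The gene that rose was Timeless, with 9.78 ± 0.47 at P0 and 8.48 ± 0.22 at E17.5 and no overlap (1.30 ± 0.20, adjusted p = 0.00091). Rfc1 had the next smallest p among positive changes and did not pass (0.03 ± 0.05, adjusted p = 0.732).

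In TKO lenses the same stage comparison gave fewer calls. At P0 7 of 51 genes were lower than at E17.5 (Cdc7, Pole2, Cdc6, Rpa3, Uhrf1, Orc6 and Pola1), 2 were higher (Dbf4 and Timeless) and 42 did not pass, where 6.29% of all genes were called lower and 8.24% higher. The median change was -0.27, beside 0.07 over all genes, and 21 genes (41.2%) had an unadjusted p under 0.05, near the 35% of all genes. Cdc7 averaged 6.58 ± 0.10 in TKO P0 arrays and 7.49 ± 0.32 in TKO E17.5 arrays (-0.91 ± 0.14, adjusted p = 0.00665), and Pole2 6.70 ± 0.20 and 7.54 ± 0.34 (-0.84 ± 0.16, adjusted p = 0.0125), neither with overlap. Dbf4 read 8.69 ± 0.16 in TKO P0 arrays and 8.35 ± 0.15 in TKO E17.5 arrays (0.34 ± 0.10, adjusted p = 0.0457), and Timeless 9.21 ± 0.41 and 8.56 ± 0.31 (0.65 ± 0.20, adjusted p = 0.0497). These numbers rest on the TKO E17.5 arrays that stood apart. Without replicates 24 and 27, 28 genes were lower (7.43% of all genes), 0 were higher (6.48%, and 2 at an unadjusted p under 0.05) and the median change was -0.49, so the calls of Dbf4 and Timeless ended.

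Ordered by group mean, control P0 lenses had the lowest of the 4 values in 47 of 51 genes and TKO E17.5 lenses the highest in 45. The same places were held in 23.3% and 19.7% of all genes. The TKO P0 mean lay above both control means in 30 genes (38.7% of all genes), between them in 21 and below both in 0. It was the highest of the 4 in Orc2, Dbf4, Prim1 and Rpa1. These counts share arrays with the comparisons above and are no separate evidence.

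No gene of the 51 passed the direct test of whether the TKO effect differed between P0 and E17.5, in which 0.104% of all genes (19) were called. The change at P0 minus the change at E17.5 had a median of 0.21 (0.06 over all genes) and a median SE of 0.18. It was positive in 44 of 51 genes. In limma, 9 genes (17.6%) had an unadjusted p under 0.05, 8 positive and 1 negative, near the 14.7% of all genes in either direction. Without TKO E17.5 replicates 24 and 27 the median was 0.04, with 28 of 51 differences positive. With the mean of retina markers in each array as a covariate it was 0.10, with 35 of 51 positive. Neither fit called any of the 51 genes in limma, where 2 and 5 had an unadjusted p under 0.05. With all arrays, Prim1 had the smallest p, with a difference of 0.82 ± 0.22 (adjusted p = 0.136), followed among positive differences by Gins1 at 0.63 ± 0.21 (adjusted p = 0.213). On the negative side stood Timeless at -0.65 ± 0.30 (adjusted p = 0.321) and Rfc1 at -0.10 ± 0.09 (adjusted p = 0.645). Without replicates 24 and 27, the difference of Prim1 was 0.57 ± 0.18 (adjusted p = 0.162) and that of Gins1 0.37 ± 0.18 (adjusted p = 0.312). Both stage comparisons and both genotype comparisons use the same 20 arrays, so the larger number of calls at P0 is not a shown difference between stages.

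Genes of the same process that are not on the list were also called at P0. Of 38 such genes, among them helicases, checkpoint factors and histone chaperones, 37 were measured. At P0 20 were higher in TKO lenses, 2 were lower (13.6% and 11.7% of all genes) and 15 did not pass, with a median change of 0.29. At E17.5 0 of 37 passed in limma (1.64% of all genes), with a median of 0.26. There 18 were higher and 1 was lower at an unadjusted p under 0.05, against 7.67% and 16% of all genes. Without replicates 24 and 27, 14 of the 37 were higher at E17.5 (9.41% of all genes) and 0 were lower, with a median of 0.37. Rnaseh2b, a ribonuclease H2 subunit, changed by 0.64 ± 0.07 at P0, Mms22l, a fork repair factor, by 0.64 ± 0.08, and Dtl, which directs destruction of Cdt1, by 1.12 ± 0.15 (adjusted p = 0.000201, 0.000433 and 0.000557). The 2 lower genes were Cul4a, a scaffold of the ubiquitin ligase that contains Dtl (-0.29 ± 0.08, adjusted p = 0.0265), and Mcm9, the partner of Mcm8 (-0.28 ± 0.09, adjusted p = 0.0341). Top1, a topoisomerase, had the next smallest p on that side and did not pass (-0.27 ± 0.10, adjusted p = 0.0586). Between stages, 21 of the 37 were lower and 1 higher at P0 in control lenses (14.6% and 8.66% of all genes). In TKO lenses 10 were lower and 1 higher (6.29% and 8.24%).

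Some markers of other eye tissue moved with the replication genes. Of 20 retina markers on the array, 13 were higher in TKO lenses at P0 and 0 were lower (17 and 1 at an unadjusted p under 0.05), with a median change of 1.15, and their summed level on the log2 scale was 11.2 to 12.2 in TKO P0 arrays and 9.50 to 10.7 in control P0 arrays. Rcvrn and Onecut1 lay below the array median in all arrays of both groups. Pigment cell markers were higher in 7 of 11 and macrophage markers in 4 of 12, lens epithelium markers were higher in 4 and lower in 7 of 12 (median -0.90), lens fibre markers were higher in 1 and lower in 2 of 15, and the 12 endothelial and 6 erythroid markers gave 0 calls (1 and 0 at an unadjusted p under 0.05). Pigment markers had a median change of 1.72 and macrophage markers of 0.58. At E17.5 none of the retina, pigment, macrophage, lens epithelium, endothelial or erythroid markers passed the test in limma (8 of all 73 at an unadjusted p under 0.05), but the retina markers summed to 10.5 to 13.2 in TKO arrays and 10.3 to 11.5 in control arrays. Without replicates 24 and 27, 11 of 20 retina markers (median 1.12) and 6 of 11 pigment markers (median 1.09) were higher at E17.5. Lens epithelium markers were higher in 3 and lower in 3 of 12 (median -0.34), and lens fibre markers higher in 1 and lower in 1 of 15. Macrophage and endothelial markers gave 0 calls, and 1 of 6 erythroid markers was lower. The retina and pigment lists thus moved together with the 36 replication genes called in that fit. Their part in that count was not tested.

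Array by array, the median deviation of the 51 genes from the control mean of the stage was 0.51, 0.77, 0.49, 0.54 and 0.65 in TKO P0 replicates 17, 18, 19, 21 and 22. For the 20 retina markers the same arrays gave 1.07, 1.23, 1.06, 1.80 and 0.83. In TKO E17.5 replicates 24 to 28 the replication genes gave 0.22, 0.77, 0.53, 0.03 and 0.51 and the retina markers -0.40, 1.68, 1.20, -0.06 and 0.39. Replicates 24 and 27 were thus lowest in both sets, while replicate 24 was positive for the replication genes and negative for retina. When the retina marker mean of each array entered the fit as a covariate, 18 of the 51 genes were higher at P0 (2.23% of all genes), with a median change of 0.55, and 2 at E17.5, Gins1 and Rpa2 (0.39% of all genes). The change of Gins1 was then 1.27 ± 0.16 at P0 and 0.63 ± 0.10 at E17.5 (adjusted p = 0.0115 and 0.0224), and that of Rpa2 0.98 ± 0.14 and 0.94 ± 0.14 (adjusted p = 0.0128 and 0.0178). The retina means of TKO P0 arrays (6.40 to 7.33) and control P0 arrays (4.90 to 6.15) did not overlap, so at P0 this fit extends beyond the measured range of either group. The Gapdh control probes, a sign of RNA integrity, gave a 5′ minus 3′ log2 difference of 0.10 to 0.20 in TKO arrays and -0.06 to 0.06 in control arrays over both stages, and its part in the results was not tested.

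**Figure D4:**
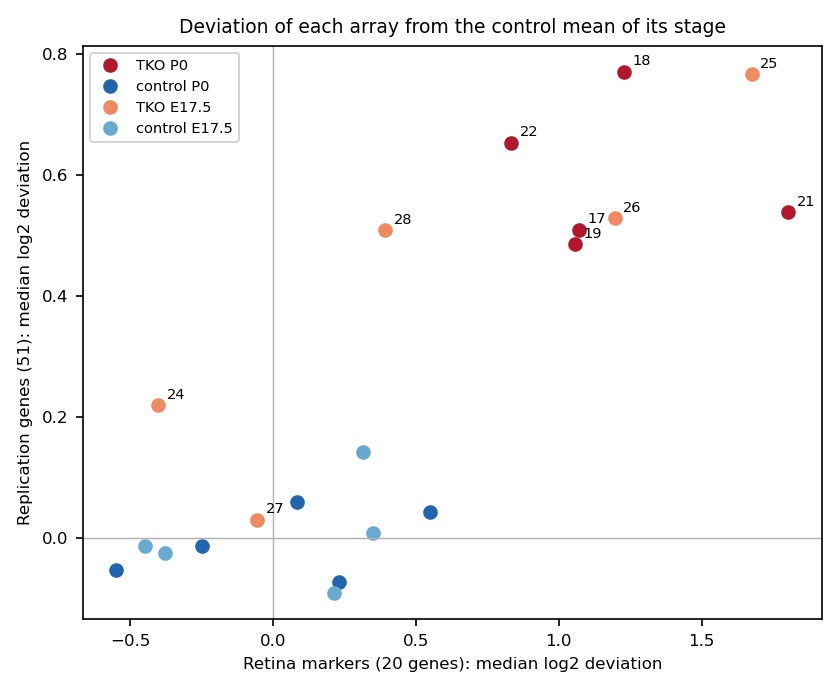
Each point is 1 of the 20 arrays. The horizontal axis is the median log2 deviation of 20 retina markers, and the vertical axis that of the 51 replication genes, both from the control mean of the same stage. TKO points carry their replicate number. All 5 TKO P0 arrays are high on both axes, and TKO E17.5 replicates 24 and 27 lie near or left of 0 on the horizontal axis.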

How the data were processed

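RNA from both lenses of a mouse was hybridised to 1 Affymetrix array per mouse. The table the authors deposited holds log2 values, a scale read from the numbers themselves, with background correction and normalization not given in the sources used here. The values were used as deposited. A platform annotation named 1 gene for 34958 of 45101 probe sets, several for 932 and none for 9147, apart from 64 control probe sets, and 34754 symbols were updated by Entrez identifier through RefSeq (GRCm38.p6). For each of 18194 genes the brightest probe set on average was kept, with no filter on low values. At most 0.142% of values were equal between arrays.

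Each comparison was fitted on its 10 arrays with lmFit and eBayes of limma 3.58.1 (R 4.3.3), and the difference of effects on all 20. P-values were two-sided and Benjamini-Hochberg adjusted over all 18194 genes, with calls below 0.05. Only the compared groups entered a fit because the spread differed between groups. Simulated data used these means and spreads over 18194 genes, with independent noise and 100 genes changed by each size. Changes of 1 log2 unit were recovered in 91% of changed genes for TKO against control at either stage. Changes of 0.5 were recovered in 72% at P0 and 53% at E17.5. For the difference of effects, recovery was 82% for 1 log2 unit and 37% for 0.5. False calls made up 10.4% and 7.1% of calls for TKO against control at P0 and E17.5, and 11.2% for the difference of effects, above the nominal rate. The measured data held more called genes at P0 and arrays that stood apart at E17.5, so these rates need not hold there. The members and lists were chosen with earlier results of these data known. Genes given array by array are those with the smallest p of each sub-complex at either stage, and for stages and the difference the 2 smallest p in each direction. Cdc6, Cdt1, Pcna and others named by their role were chosen after their values were seen. Errors beside changes are SEs and beside means SDs of 5 arrays, whose number limits the precision. Alternatives were pooled or group-wise variance, array weights, scaling, filters, probe set choice, a retina covariate and leaving out arrays.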

Additional observations from a re-analysis of the deposited data

Results flagged for a closer look

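Among 76 groups of 5 arrays, 19 genes in 4 groups each, 5 held an array far from the other 4 by Dixon's criterion, a gap above 0.71 of the group's range, which chance gives in about 1 of 20 groups. Replicate 18 of the TKO P0 arrays was high for 2 genes, at 9.10 for Mcm5 where the others read 8.33 to 8.52, and at 8.59 for Rpa2 where the others read 8.21 to 8.28. Orc6 read 7.88 in TKO P0 replicate 22 and 7.56 to 7.64 in the other TKO P0 arrays. Mcm4 read 7.97 in control P0 replicate 5, against 7.53 to 7.64 in the other control P0 arrays. Mcm4 also read 8.25 in control E17.5 replicate 10, below the 8.58 to 8.69 of the other control E17.5 arrays. Without replicate 18, 42 of the 51 genes were still called higher in TKO than in control lenses at P0. Calls over all genes, in either direction, were then 20.3%, against 25.3% with all arrays.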

How the results depend on the processing

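No paired analysis was possible because the replicate numbers in the labels are not shared between groups. For TKO against control at P0 (44 calls), the retina covariate gave 18 and leaving out 1 array gave 41 to 44, while calls over all genes went to 3.16% and to 19.3% to 28.5%. For TKO against control at E17.5 (6 calls), all 20 arrays in 1 fit gave 20, a variance for each group 19, array quality weights 31, the retina covariate 2, leaving out TKO replicates 24 and 27 together 36, and leaving out 1 array 1 to 24. Calls over all genes moved too, at 1.64% in the fit as reported and, in the same order, 8.73%, 5.3%, 15.8%, 0.495%, 17.6% and 0.291% to 6.52%. For P0 against E17.5 in TKO lenses (9 calls), the counts were 22 with all 20 arrays in 1 fit, 29 with array weights, 3 with a filter at the 75th percentile, 5 with the mean of probe sets, 23 with the retina covariate, 28 without TKO replicates 24 and 27, and 2 to 16 without 1 array, and calls over all genes, 14.5% as reported, were 31.8%, 41.7%, 12.1%, 14.6%, 16.6%, 13.9% and 3.11% to 20.7%. For P0 against E17.5 in control lenses (42 calls), all 20 arrays in 1 fit gave 37, quantile normalization 39, and leaving out 1 array 39 to 42. Calls over all genes, 23.3% as reported, were 10.7%, 21.9% and 18.3% to 23.5%. For the difference of effects (0 calls), array weights gave 1, Prim1 (9.01% of all genes), and leaving out 1 array gave 0 to 0. The cause of these shifts was not tested. Scaling moved the split of all genes at E17.5, with 166 higher and 133 lower as deposited, 165 and 256 after quantile normalization, and 118 and 41 after centring on array medians. For the stage comparison in TKO lenses, 1499 higher and 1145 lower genes became 682 and 1314 after centring, and the members' 2 higher and 7 lower became 2 and 5 after quantile normalization and 0 and 13 after centring. Over the 19 genes checked under each alternative, no direction of a called gene reversed, while 2 uncalled changes near 0 crossed it, Rfc1 at P0 (-0.07 to 0.06, positive in 2 of 21 settings) and Timeless at E17.5 (-0.02 to 0.20, positive in 21 of 22). At P0 383 results kept their side of the threshold, 8 lost it and 1 gained it, and at E17.5 320 kept it, 47 lost it and 44 gained it. Of 55 other probe sets of the genes, 47 had the sign of the chosen one at P0 and 45 at E17.5.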
